A study of Mus musculus with 16 samples.

Results

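The Hox gene clusters are the 4 chromosomal runs of homeobox transcription factor genes that pattern the body axis: HoxA on chromosome 6, HoxB on chromosome 11, HoxC on chromosome 15 and HoxD on chromosome 2. The 38 genes followed here were 10 of HoxA (Hoxa2 to Hoxa7, Hoxa9, Hoxa10, Hoxa11 and Hoxa13), 10 of HoxB (Hoxb1 to Hoxb9 and Hoxb13), 9 of HoxC (Hoxc4, Hoxc5, Hoxc6 and Hoxc8 to Hoxc13) and 9 of HoxD (Hoxd1, Hoxd3, Hoxd4 and Hoxd8 to Hoxd13). They were chosen by name and are not every gene of the clusters, and a DNase hypersensitive site (DHS, a stretch of open chromatin that DNase I cuts readily) was assigned to them when it overlapped a member gene or the 20 kb on either side of it. By this rule 31 of 129472 DHS in the liver lists, or 23 of 51482 regions after overlapping DHS of different lists were joined, belonged to the Hox clusters. The 38 genes were 38 of 22241 protein-coding genes in the GENCODE annotation of the mouse assembly mm9.

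Hox genes lie in each cluster in the order in which they act along the head-to-tail axis, and genes of the same number in different clusters are paralogs that descend from a common ancestor gene. In embryos the clusters are opened stepwise from their low-numbered end under retinoic acid and the caudal factors, trithorax proteins keep active genes open, and Polycomb complexes keep silent ones compacted under H3K27me3. Adult hepatocytes owe their identity to other factors such as HNF4A, FOXA and C/EBP proteins.

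DNase-seq was run on liver nuclei of male and female mice of C57BL/6J (B6), the strain of the reference genome, and CAST/EiJ (CAST), a wild-derived inbred strain, all 8 weeks old and carrying no transgene or treatment named in the labels. Digestion used 32 units of DNase I for 2 min, fragments of 125 to 400 bp were sequenced, and the lists rest on 16 libraries, 4 for each sex and strain, after the authors had left out 1 further library per group for its quality. The authors pooled the 4 libraries of a group before calling DHS, so each group is 1 list, no spread between animals could be computed, no test of a group difference was possible, and intervals given below cover counting error only. Nuclei came from whole liver, and fewer open cells and less opening per cell cannot be told apart.

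The lists differed in size and depth. They held 38751 (male B6), 26271 (female B6), 39562 (male CAST) and 24888 (female CAST) DHS. The background that the peak caller expected genome-wide, in overlapping reads at a position, was 15.4, 13.9, 14.3 and 7.94 in the same order. At that background the lowest fold enrichment called, where fold enrichment is the read pileup at the DHS summit over the expected background, was 1.90, 1.94, 1.90 and 2.24, so a site below 2.24-fold at that background could not enter the female CAST list. Of 10 hepatocyte marker genes, between 7 and 9 had a DHS within 1 kb of a transcription start site (TSS) in each list. Of 6 Kupffer cell and 6 lymphoid and myeloid marker genes none had one, and of 7 stellate cell markers 2 had one in each B6 list, 1 in male CAST and none in female CAST. Sinusoidal endothelial markers were called at 6, 5, 3 and 2 of 6 genes in the order above, and bile duct markers at 2, 1, 2 and 1 of 5 genes. Their part in the Hox counts was not tested.

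The sequences below are the 200 bases around the summits of 7 Hox DHS regions: the strongest region of each cluster, the Hoxa4 promoter region found in 3 lists, the region upstream of Hoxa13 found in both male lists, and the Hoxa6 upstream region of male B6. They are the mm9 reference sequence on the plus strand, with every CpG dinucleotide in capitals, and stretches that overlap an annotated untranslated region were left out.
Hoxa3 exon, chr6:52120751-52120950: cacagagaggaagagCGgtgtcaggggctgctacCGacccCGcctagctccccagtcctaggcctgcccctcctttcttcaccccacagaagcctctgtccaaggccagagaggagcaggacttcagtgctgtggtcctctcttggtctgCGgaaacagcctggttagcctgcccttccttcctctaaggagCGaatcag
Hoxa4 upstream, chr6:52142007-52142206: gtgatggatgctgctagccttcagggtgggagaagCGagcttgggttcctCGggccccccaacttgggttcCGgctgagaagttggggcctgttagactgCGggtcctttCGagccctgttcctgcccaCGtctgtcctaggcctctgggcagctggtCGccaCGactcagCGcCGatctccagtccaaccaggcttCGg
Hoxa6 upstream, chr6:52161762-52161961: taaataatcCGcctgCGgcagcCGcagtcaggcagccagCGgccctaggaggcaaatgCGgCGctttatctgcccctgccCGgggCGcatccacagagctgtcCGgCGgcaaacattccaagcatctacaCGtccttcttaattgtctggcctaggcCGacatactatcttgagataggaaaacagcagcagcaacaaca
Hoxa13 far upstream, chr6:52220735-52220934: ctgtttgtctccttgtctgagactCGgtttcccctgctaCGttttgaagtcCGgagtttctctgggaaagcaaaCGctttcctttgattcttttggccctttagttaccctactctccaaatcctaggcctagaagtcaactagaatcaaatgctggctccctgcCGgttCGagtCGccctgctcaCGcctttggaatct
Hoxb3 intron, chr11:96203437-96203636: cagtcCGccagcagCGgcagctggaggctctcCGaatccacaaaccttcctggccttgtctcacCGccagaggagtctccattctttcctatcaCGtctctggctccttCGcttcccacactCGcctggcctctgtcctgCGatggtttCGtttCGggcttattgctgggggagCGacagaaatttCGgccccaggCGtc
Hoxc10 upstream, chr15:102794368-102794567: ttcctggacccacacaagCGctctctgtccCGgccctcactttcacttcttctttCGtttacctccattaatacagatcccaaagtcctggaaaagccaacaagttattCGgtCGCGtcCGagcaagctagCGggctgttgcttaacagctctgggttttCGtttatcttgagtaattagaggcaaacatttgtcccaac
Hoxd13 exon, chr2:74506680-74506879: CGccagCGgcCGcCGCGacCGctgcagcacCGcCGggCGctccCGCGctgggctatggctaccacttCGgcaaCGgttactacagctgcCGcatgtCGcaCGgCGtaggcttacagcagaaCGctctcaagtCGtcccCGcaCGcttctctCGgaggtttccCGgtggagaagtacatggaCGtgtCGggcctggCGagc
The Hoxd13 stretch held 26 CpGs, an observed-to-expected ratio of 1.14, where the Hoxa3 exon stretch held 5 and a ratio of 0.277. The other 5 stretches held 8 to 13 CpGs, with ratios between 0.546 and 0.817.

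The male lists as deposited held more Hox DHS than the female lists of their strain, and more DHS of any kind. Male B6 held 12 Hox DHS of 38751, female B6 held 6 of 26271, male CAST held 12 of 39562 and female CAST held 1 of 24888. In lists reduced to the 24888 DHS of highest −log10 q the order turned, with 2, 4, 0 and 1 Hox regions. No Hox region was found in all 4 lists, 3 were found in 3 lists, 2 in 2 lists and 18 of 23 (78.3%) in a single list. Over all 51482 regions, 35.2% were found in 1 list and 35.6% in all 4. HoxA carried 13 of the 23 regions, HoxB 6, HoxC 3 and HoxD 1. Per 100 kb of window (139, 180, 156 and 137 kb) these were 9.38 regions in HoxA, 3.33 in HoxB, 1.93 in HoxC and 0.731 in HoxD, beside 1.95 per 100 kb over the genome.

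**Figure D1:**
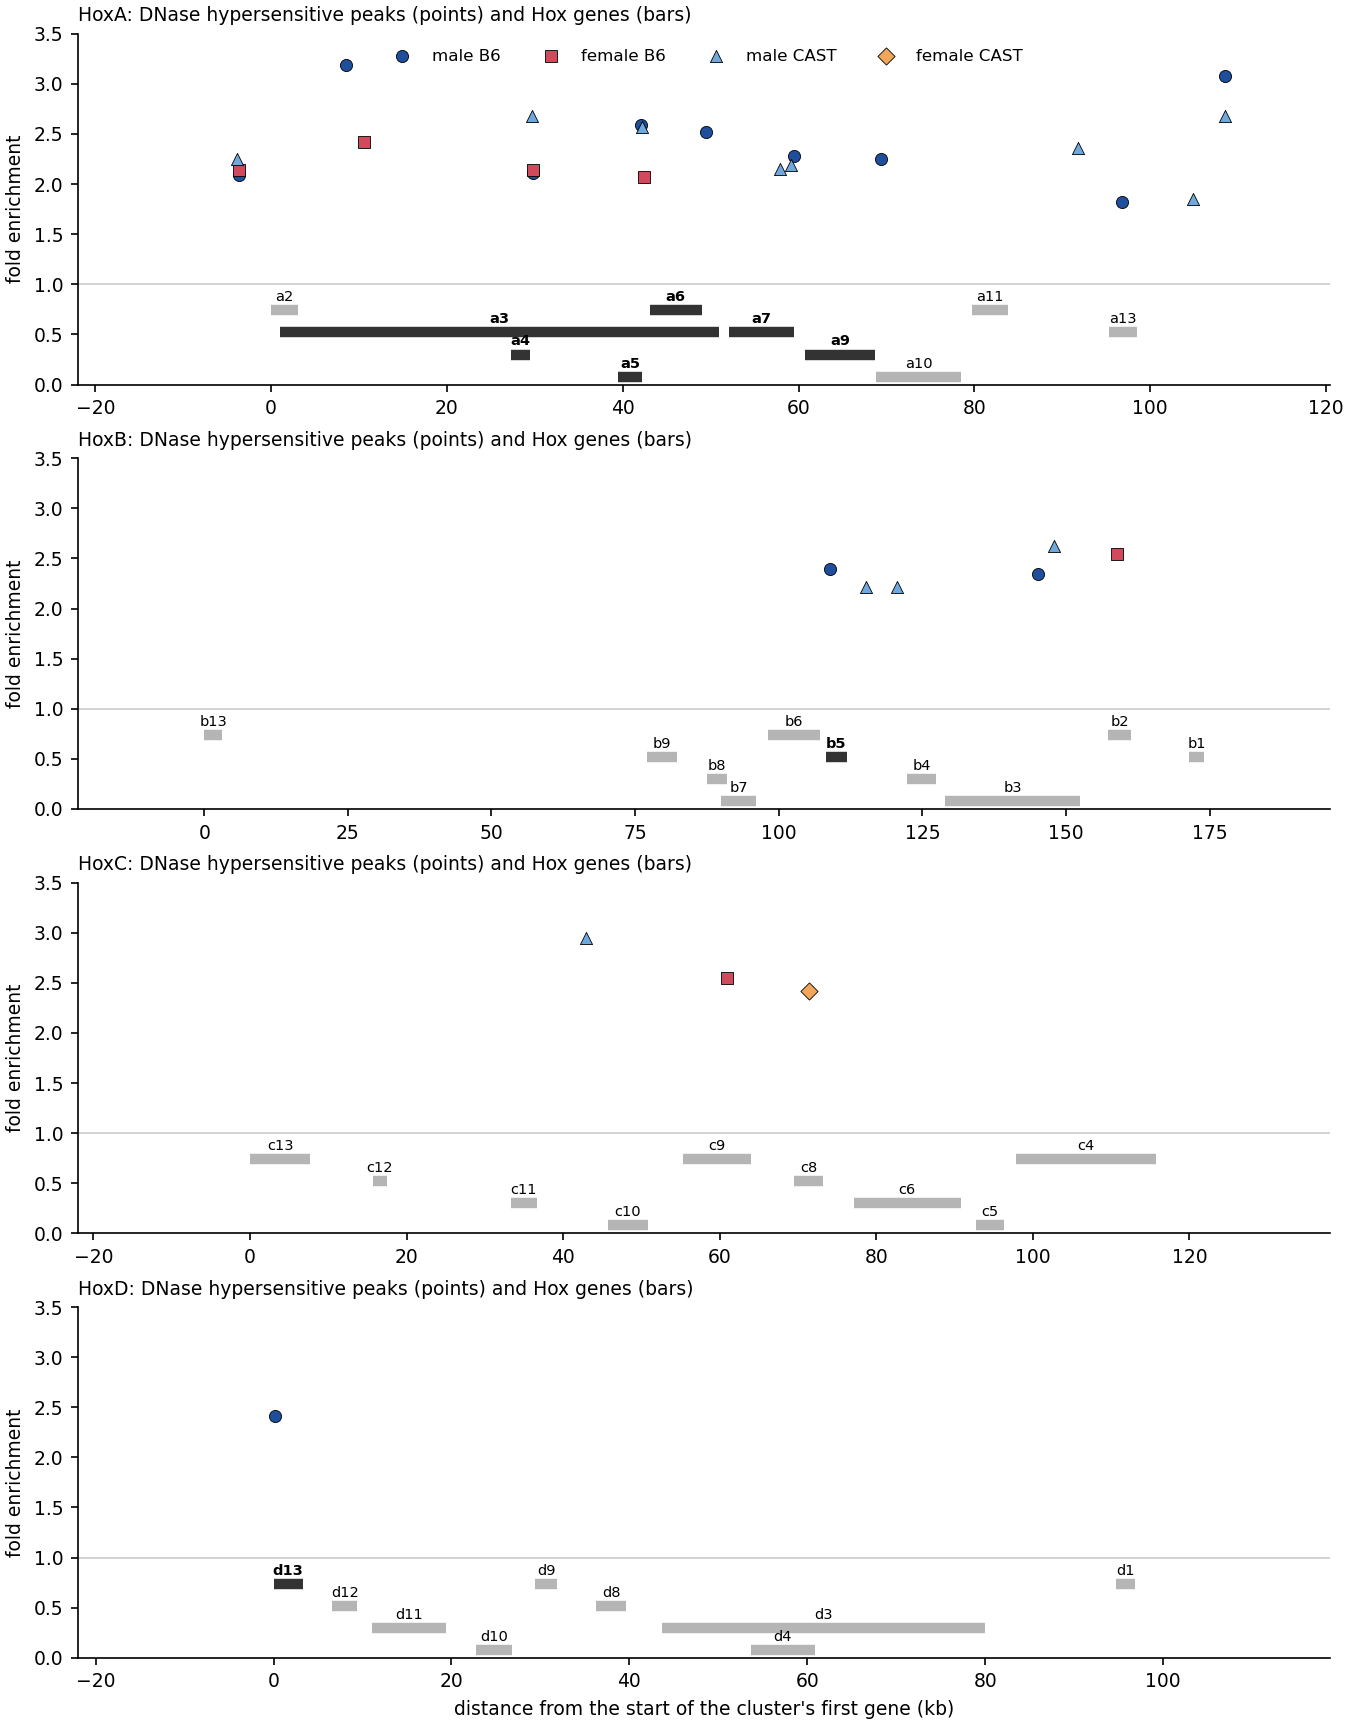
Each panel shows 1 Hox cluster, with the distance from the start of its first gene in kb on the x axis and fold enrichment on the y axis; points are the 31 DHS of the 4 lists and bars are the 38 genes, dark where a DHS of any list lay within 1 kb of a TSS. Points of HoxA run from beyond Hoxa2 to beyond Hoxa13, the points of HoxB lie between Hoxb5 and Hoxb2, and HoxD has 1 point, at Hoxd13.

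The HoxA cluster held all 5 Hox regions that recurred between lists. At Hoxa4, a gene of the central, hindbrain-to-trunk part of the axis, a region at chr6:52141906-52142332 lay 154 bp upstream of the TSS and within an intron of the long Hoxa3 transcripts. Fold enrichment was 2.12 in male B6 (1.51 to 2.88), 2.14 in female B6 (1.48 to 3.01) and 2.68 in male CAST (2.00 to 3.52), where ranges are 95% Poisson intervals of the pileup. The 3 intervals overlap, and female CAST had no DHS there.

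At Hoxa5, known for its roles in lung and trunk development, a region at chr6:52154270-52154964 covered the TSS, the first exon and part of its coding sequence. It reached 2.59-fold in male B6 (1.93 to 3.39), 2.07-fold in female B6 (1.44 to 2.90) and 2.57-fold in male CAST (1.91 to 3.39). The male DHS covered nearly the same bases, chr6:52154270-52154690 and chr6:52154278-52154704, while the female B6 DHS at chr6:52154642-52154964 overlapped only their upstream end. The female B6 DHS lay upstream of the Hoxa5 TSS at 52154586, so only the male DHS covered the TSS and exon. When joining required an overlap of 50% of both peaks, the female B6 DHS was no longer joined to the male ones.

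Another region shared by both B6 lists and male CAST lay at chr6:52108086-52108892, 3458 bp downstream of Hoxa2 and at no promoter of the 38 genes. Promoters of HoxA genes outside the list were not analysed here. Its fold was 2.09 (male B6), 2.14 (female B6) and 2.25 (male CAST). These values differed by less than their counting intervals, which ran from 1.55 to 2.76, 1.52 to 2.93 and 1.67 to 2.98.

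The remaining recurrent regions were found in both male lists and in neither female list. One covered the TSS and first exon of Hoxa7 at chr6:52171152-52172007, with 2.28-fold in male B6 (1.72 to 2.97) and 2.19-fold in male CAST (1.62 to 2.91). The DHS of the male lists, chr6:52171558-52172007 in B6 and chr6:52171152-52171743 in CAST, overlapped only in part and were not joined when an overlap of 50% of both was required. The B6 DHS covered the upstream end of the gene at 52171853, and the CAST DHS ended short of it. The other lay at chr6:52220662-52221155, between genes and 9788 bp upstream of Hoxa13, a gene of limb and hindgut ends. It reached 3.08-fold in male B6 (2.35 to 3.98) and 2.68-fold in male CAST (1.99 to 3.55).

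The strongest Hox DHS of any list was in HoxA as well. It overlapped a coding exon of Hoxa3, a regulator of pharyngeal organs, at chr6:52120664-52120988, and was called in male B6 only, at 3.19-fold (2.49 to 4.02) and a −log10 q of 14.1. Further upstream in the same gene, a DHS 50 bp from a Hoxa3 TSS, at chr6:52122698-52123032, was called in female B6 only, at 2.42-fold (1.76 to 3.25). The sexes of B6 thus each had a Hoxa3 DHS that the other list did not hold.

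The other HoxA regions were single-list DHS. Male B6 had DHS 274 bp upstream of Hoxa6 (2.52-fold, chr6:52161629-52162038), over an untranslated exon of Hoxa10 that lies 558 bp upstream of Hoxa9 (2.25-fold, chr6:52181646-52181916) and in the coding sequence of Hoxa13 (1.82-fold, chr6:52209022-52209324). Male CAST had one 23 bp from a Hoxa7 TSS (2.15-fold, chr6:52170115-52170369) and others 3346 bp downstream (2.36-fold) and 6237 bp upstream (1.86-fold) of Hoxa13. The lowest folds of all Hox DHS, 1.82 and 1.86, were thus both beside Hoxa13.

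HoxB regions were confined to the stretch between Hoxb5 and Hoxb2, each in a single list. Male B6 had a DHS 386 bp inside Hoxb5, over its untranslated sequence (2.40-fold, chr11:96164295-96164683), and another within Hoxb3 (2.34-fold, chr11:96200533-96201017). Male CAST had 3: one in an intron of Hoxb3 (2.62-fold, chr11:96203318-96203867), one 1603 bp upstream of Hoxb4 (2.22-fold) and one 3319 bp downstream of Hoxb5 (2.21-fold). Female B6 had 1, in the coding sequence of Hoxb2, a hindbrain segment gene (2.55-fold, chr11:96214155-96214853), and female CAST had none. Hoxb9 and the outlying Hoxb13 had no DHS within 20 kb in any list.

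HoxC held 3 regions, at a density close to that of the genome, and HoxD held 1. The HoxC DHS were 2577 bp upstream of Hoxc10, a hindlimb and lumbar gene, in male CAST (2.95-fold, 2.19 to 3.89, chr15:102794160-102794650), in the coding sequence of Hoxc9 in female B6 (2.55-fold, chr15:102812324-102812562) and in that of Hoxc8 in female CAST (2.42-fold, chr15:102822667-102823096). The Hoxc8 DHS, with a pileup of 21 reads, was the only Hox DHS of the female CAST list, and no HoxC DHS was called in male B6. HoxD had 1 DHS, over the TSS and first exon of Hoxd13, the most distal limb gene of the cluster, in male B6 (2.41-fold, 1.77 to 3.22, chr2:74506268-74506884). Hoxd1, Hoxd3, Hoxd4, Hoxd8, Hoxd9 and Hoxd10 had no DHS within 20 kb in any list, nor did Hoxc4, Hoxc5, Hoxc12 and Hoxc13.

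A DHS within 1 kb of an annotated TSS was found in at least 1 list for 8 of 38 Hox genes, where 54.3% of all protein-coding genes had one. In male B6 the genes were Hoxa4, Hoxa5, Hoxa6, Hoxa7, Hoxa9, Hoxb5 and Hoxd13, 7 of 38 or 18.4% (Wilson 95% interval 9.22 to 33.4), beside 51.8% of all genes. In female B6 they were Hoxa3, Hoxa4 and Hoxa5 (7.89%, 2.72 to 20.8, beside 47.3%), in male CAST Hoxa4, Hoxa5 and Hoxa7 (7.89%, beside 51.0%), and in female CAST there was none (interval up to 9.18%, beside 44.3%). No Hox gene had a promoter DHS in all 4 lists, as 42.4% of all genes did. In each list the upper bound of the Hox share lay below the share of all genes. Most of these genes were neighbours, since 6 of the 8 formed the unbroken run of member genes from Hoxa3 to Hoxa9. With the TSS of protein-coding transcripts alone, the Hoxa6 promoter was not called, and 6 genes were left in male B6.

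By position along the axis, a promoter DHS in any list was found for 1 of 7 genes of paralog groups 1 to 3, 5 of 15 genes of groups 4 to 8 and 2 of 16 genes of groups 9 to 13. In female B6 and male CAST the genes called belonged to groups 3 to 5 and 4 to 7. In male B6, 5 belonged to groups 4 to 8 and 2, Hoxa9 and Hoxd13, to groups 9 to 13. Within groups 4 to 8 only Hoxb5 was called outside HoxA, so these counts do not separate position along the axis from cluster. With a wider criterion, a DHS within 20 kb of the gene, 20, 14, 19 and 3 of the 38 genes were called in the lists in the order given above, beside 71.0%, 66.2%, 71.2% and 64.6% of all protein-coding genes. Neighbouring Hox genes share such DHS, so these genes are not independent of each other.

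Between the sexes of B6, 9 of 15 Hox regions were called in males only, 3 in females only and 3 in both. The background over all regions with a DHS in either list was 36.4% male only and 5.13% female only, and 58.4% were in both. In CAST 12 of 13 were male only, 1 was female only and none was in both (upper bound 22.8%), beside 40.3% male only, 3.90% female only and 55.8% in both over all regions. Pooled over the strains, 16 of 23 Hox regions were in male lists only, 4 in female lists only (Hoxa3, Hoxb2, Hoxc9 in B6 and Hoxc8 in CAST) and 3 in lists of both sexes (69.6%, 17.4% and 13%). Over all regions these shares were 38.9%, 5.74% and 55.4%, so that both single-sex shares were higher among the Hox regions.

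The counts were also taken from lists of equal size or scaled depth. When each list was reduced to the 24888 DHS with the highest −log10 q, the size of the female CAST list, male B6 kept 2 Hox regions, female B6 kept 4, male CAST 0 and female CAST 1, so that 2 were male only and 5 female only. The male lists lose their weakest DHS by construction here. Over all 35042 regions of these reduced lists, 25.7% were found in 1 list and 47.9% in all 4. The 2 male regions were the strongest ones, the Hoxa3 exon and the region upstream of Hoxa13, and the only promoter DHS left was that of Hoxa3 in female B6. When pileups were instead scaled to the lowest depth, 9, 3, 10 and 1 Hox regions were left in male B6, female B6, male CAST and female CAST, and the male counts stayed above the female counts. The scaled lists as a whole held 34989, 24034, 36345 and 24888 DHS in that order, so the male lists stayed larger for DHS of any kind. Only DHS already called were scaled. With a −log10 q of at least 15.7, the median over the 4 lists, no Hox DHS was left.

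Between the strains, males had 19 Hox regions in either list, of which 7 were in B6 only, 7 in CAST only and 5 in both (26.3%, 11.8 to 48.8). Over all regions of the male lists 19.1% were in B6 only, 20.9% in CAST only and 60% in both. Females had 7 Hox regions, 6 in B6 only, 1 in CAST only and none in both (upper bound 35.4%), beside 22.6%, 18.3% and 59.1% over all regions. The 5 regions shared by the male lists were all in HoxA. At them the fold of male B6 was 0.790 to 1.15 times that of male CAST, and every 95% counting interval of these ratios included 1, as did those of the 3 regions shared by male and female B6 (ratios 0.975 to 1.25). At regions common to the 4 lists the median ratio was 0.944 for male B6 to male CAST and 1.34 for male to female B6, so fold is not on a common scale between lists.

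The share of regions found again in another list was also taken over regions with folds in the range of the Hox regions. In male B6, 16300 regions had a fold within the range of the Hox regions (1.82 to 3.19), and 27.4% of them were also in female B6 (61.6% of all 38392 male B6 regions), beside 3 of 12 Hox regions (25%, 8.89 to 53.2). Of 5253 female B6 regions between 2.07 and 2.55, 72.3% were also in male B6, beside 3 of 6 Hox regions (50%, 18.8 to 81.2). Of the 16300 male B6 regions, 53.6% were also in male CAST, beside 5 of 12 Hox regions (41.7%). Of 12682 male CAST regions in the Hox range of 1.86 to 2.95, 45.8% were in male B6, beside 5 of 12 Hox regions (41.7%), and 16.1% were in female CAST, beside none of 12 (upper bound 24.2%). Of the same 5253 female B6 regions, 35.1% were in female CAST, beside none of 6 Hox regions (upper bound 39.0%). For the single female CAST Hox region the range holds that region alone. These ranges were set from the Hox values, the Hox counts are small and their intervals wide, so these shares are a description only.

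All 31 Hox DHS lay below the median of their own list in fold enrichment and in −log10 q. Their fold ran from 1.82 to 3.19 with a median of 2.36, where all 129472 DHS had a median of 3.62. The median Hox DHS stood at the 13.7th percentile of its list, and the highest, at the Hoxa3 exon, at the 43.5th. Widths ran from 238 to 757 bp with a median of 389 bp, beside 571 bp for all DHS. The pileups behind these folds were 21 to 69 reads.

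**Figure D2:**
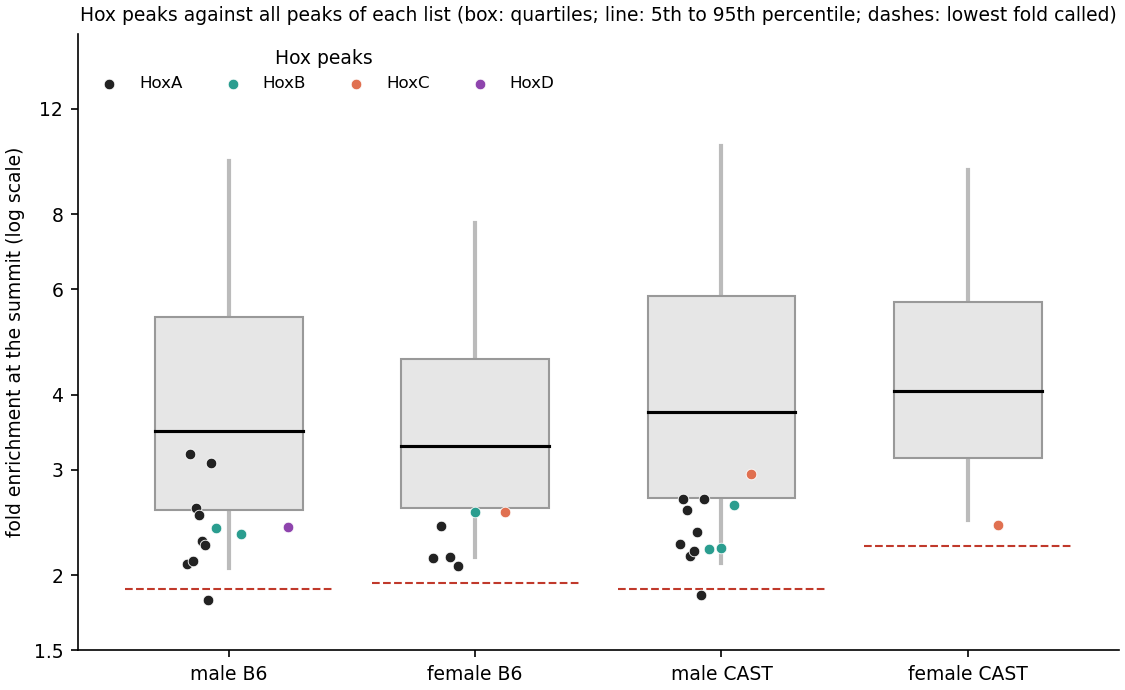
For each list the box gives the quartiles of fold enrichment over all its DHS on a log axis, the grey line the 5th to 95th percentile, the black bar the median and the dashed line the lowest fold called at the genome-wide background; points are Hox DHS by cluster. Every point lies below the black bar, and 2 points, both of HoxA and from male lists (1.82 and 1.86), lie below their dashed line, at sites with a raised local background.

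The local background, by which the pileup is divided, was more than 1% above the genome-wide value of the list for 28 of 31 Hox DHS and for 75.5% to 80.3% of all DHS in a list. Its median ratio to the genome-wide value was 1.24 for the 21 DHS of HoxA (up to 1.51), 1.07 for the 6 of HoxB, 1.02 for the 3 of HoxC and 1.15 for the DHS of HoxD. Over all DHS the median was 1.23 to 1.31 in the 4 lists, so the medians of the 4 clusters lay within or below the range of those of all DHS. The share above the genome-wide value was higher for the Hox DHS in the male lists, at 12 of 12 in each. In female B6 it was lower, at 3 of 6 beside 78.3% of all DHS, and in female CAST it was 1 of 1.

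No cluster held a DHS common to the 4 lists. The nearest such regions on either side stood 515 kb apart around HoxA, 561 kb around HoxB, 418 kb around HoxC and 246 kb around HoxD. These gaps held 13, 13, 11 and 11 protein-coding genes, of which 10, 10, 9 and 9 were Hox genes of the 38 followed here. Of 18289 gaps between successive 4-list regions in the genome, 98 held at least 13 genes and 129 at least 11, and 971, 899, 1202 and 2001 were at least as long as the gaps around HoxA, HoxB, HoxC and HoxD. The 500 kb on either side of the windows held 11 regions common to all lists beside HoxA, 12 beside HoxB, 17 beside HoxC and 2 beside HoxD. In all, 36, 30, 37 and 4 regions lay there, 3.6, 3, 3.7 and 0.4 per 100 kb. HoxA held more regions per 100 kb than its surroundings, none of them common to the 4 lists, while HoxC held fewer than its own.

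**Figure D3:**
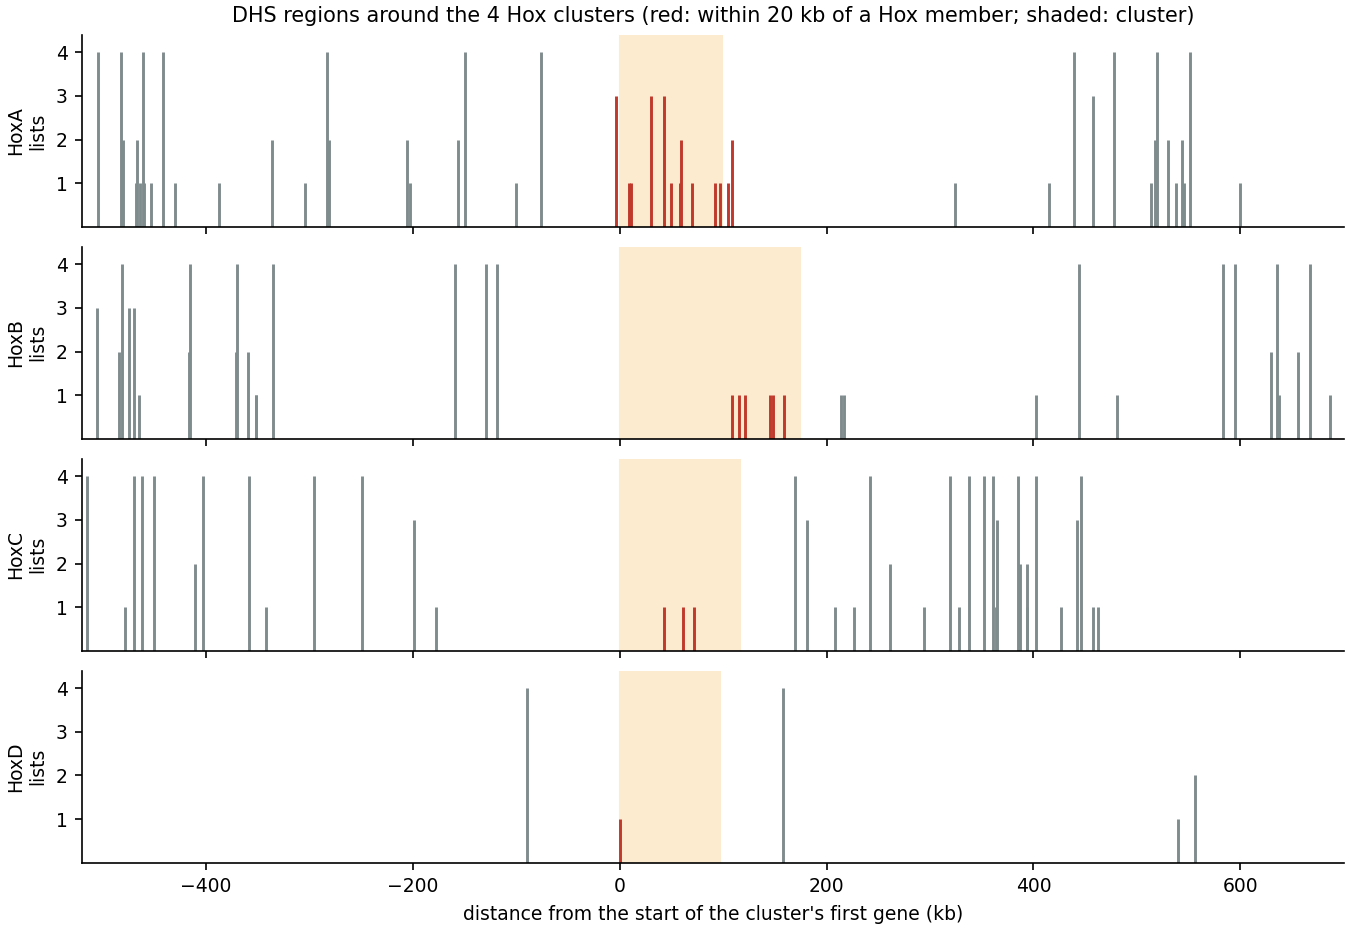
Each panel shows the DHS regions around 1 Hox cluster, by distance from the start of its first gene in kb (x axis), with the height of a line giving the number of lists, of 4, that held the region (y axis). Lines of regions within 20 kb of a Hox gene are red and reach at most 3 in HoxA and 1 in the other clusters, and grey lines of 4 lists flank every shaded cluster.

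The Hox regions were rich in CpG. In the 300 bp around the summit their median CpG observed-to-expected ratio was 0.693, and their median G+C content was 57.3%. Over all regions these were 0.266 and 49.0%, and over regions found in 1 list 0.211 and 47.0%. A G+C content of at least 55% with a ratio of at least 0.65 was met by 11 of 23 Hox regions (47.8%), 16.7% of all regions, 36.5% of regions in all 4 lists and 3.55% of regions in 1 list. The regions of the Hoxa4, Hoxa5, Hoxa6 and Hoxd13 promoters met it, as did that over the TSS and first exon of Hoxa7 but not the male CAST region 23 bp from a Hoxa7 TSS (ratio 0.538). It was also met by those of the Hoxa3 and Hoxb5 promoters and the regions upstream of Hoxb4 and in Hoxb2, Hoxb3 (male CAST) and Hoxc9. The AT-rich extreme was the male CAST region 6237 bp upstream of Hoxa13, with 35.7% G+C.

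Such promoters are open in most genes of the liver lists. In a window of 500 bp on either side of the TSS, the same criterion was met by 20 of the 38 Hox genes and by 8966 protein-coding genes. Of these 8966 genes, the male B6 list had a DHS within 1 kb of a CpG-rich TSS for 83.1%, female B6 for 78.1%, male CAST for 81.9% and female CAST for 74.2%. Of the 20 Hox genes, Hoxa4 and Hoxd13 had one in male B6 (10%, 2.79 to 30.1), Hoxa4 alone in female B6 and in male CAST (5%, 0.888 to 23.6) and none in female CAST (upper bound 16.1%). Hoxa7 and Hoxa9, also among the 20, had a promoter DHS in male B6, and Hoxa7 in male CAST as well. Those DHS lay near another TSS of the gene and not within 1 kb of a CpG-rich TSS. The CpG-rich promoters of Hoxd8, Hoxd11 and Hoxa13, with a G+C content of up to 76.7%, 70.5% and 76.1%, had no DHS in any list. The criterion was set after the Hox regions had been examined.

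Letters of known factor motifs were searched in the same 300 bp on both strands. The Sp1-type GC box GGGCGG was present in 1 of 23 Hox regions (4.35%) and in 20% of all regions, and the CCAAT box in 4 (17.4%) and 35.5%. Letters of liver factors were found in 1 Hox region for FOXA (TGTTTAC, 6.60% of all regions), in none for HNF4A (CAAAGTCCA, 1.68%) and in 5 for C/EBP (TTGCNNAA), 21.7% beside 17.2%. The letters TGATTNAT, bound by HOX proteins together with PBX cofactors, were in none of the 23 Hox regions and in 4.51% of all regions. The CTCF core, which is CC, any 3 bases, AGG, any 1 base and GGC, was found in 1 Hox region, that of Hoxb5, beside 2.95% of all regions. A match describes letters only, and matches of different motifs may overlap.

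Most genes that border the clusters had promoter DHS stronger than those of the Hox genes. Of 18 neighbours, 13, 13, 13 and 11 had one in male B6, female B6, male CAST and female CAST, with a median fold of 7.85, 6.38, 8.30 and 7.98. Cbx5, a heterochromatin protein gene next to HoxC, and Hnrnpa1, an RNA-binding protein gene that shares its promoter region, both had 12.7-fold, 11-fold, 13.3-fold and 12.1-fold in the same order. Cbx1, beyond HoxB, had 11.3, 8.43, 11.6 and 9.07. Skap2, beside HoxA, had 9.21, 6.96, 9.09 and 9.35, and Hnrnpa3, beyond HoxD, had 11.2, 8.09, 11.8 and 10. Among neighbours with a promoter DHS, Snx10 and Calcoco1 had the lowest mean fold over the 4 lists, with a missing DHS taken as 0. Snx10 had 3.56, 2.97 and 3.45 and none in female CAST, so that its female B6 value lay within the Hox range. Calcoco1 had 4.74, 3.22 and 4.90 and none in female CAST. In male CAST Lnp (4.69) was lower than Calcoco1. By contrast the even-skipped homeobox genes Evx1 and Evx2, which adjoin the high-numbered ends of HoxA and HoxD, had no promoter DHS in any list, and neither had Skap1, Smug1 and Ttll6.

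Genes of Hox cofactors and of Hox cluster regulators were set beside the share of all protein-coding genes with a promoter DHS (51.8%, 47.3%, 51.0% and 44.3%). Of 9 cofactor genes of the TALE class, which bind DNA together with Hox proteins, 7, 7, 5 and 6 had one in the 4 lists in the order above. In every list the Wilson interval of the cofactor share included the share of all genes. It was 45.3 to 93.7% in each B6 list, 26.7 to 81.1% in male CAST and 35.4 to 87.9% in female CAST. Pknox1 had 9.21-fold, 7.30, 7.72 and 7.06, and Meis1 had 4.44, 2.71, 5.21 and 3.77. Meis3 and Pknox2 had none. Of 23 Polycomb and trithorax genes, 21, 21, 22 and 20 had one (87% to 95.7%). They included Ezh2, the H3K27 methyltransferase (8.34, 5.34, 7.68 and 5.34), Eed, its partner (10.1, 7.79, 9.70 and 9.14), and the gene of the trithorax methyltransferase Mll1 (9.75, 6.47, 10.5 and 7.47). Folds within the Hox range (1.82 to 3.19) also occurred in both groups, as at the cofactor genes Pbx2 (2.85, 2.1, 2.38 and 2.11) and Pbx4 (2.66 in male B6 and 2.55 in female B6), at Meis2 in female CAST (2.62), at Pcgf2, called in male CAST only (2.15), and at Ring1 (3.03, 3.13, 3.32 and 2.75), where the male CAST value was above it.

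Other homeobox genes of development also had few promoter DHS. Of 50 such genes, the male B6 list had a promoter DHS for 10 (20%), female B6 for 2 (4%), male CAST for 11 (22%) and female CAST for 3 (6%), and 32 had none in any list. The median fold of those with one was 2.30 in male B6 and 2.37 in male CAST, beside Hox medians of 2.40 and 2.57. In female B6 it was 3.44 over 2 genes beside 2.14 over 3 Hox genes, and in female CAST it was 2.71 over 3 genes. Folds above that of the strongest Hox DHS (3.19) were found at Lhx1, with 5.88, 3.49, 7.19 and 5.03, and at Irx3, with 3.22 in male B6 and 3.39 in female B6. Liver transcription factor genes had a promoter DHS in 18, 17, 17 and 17 of 18 cases, including Hnf4a (5.63, 3.64, 7.21 and 5.51) and Foxa2 (5.79, 4.09, 5.30 and 4.61). Folds within the Hox range occurred here too, as at Foxa1 (2.11, 2.32, 2.74 and 2.89) and Rxra (3, 2.25, 2.78 and 3.05). Prox1, called in male B6 only, lay below that range (1.52).

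**Figure D4:**
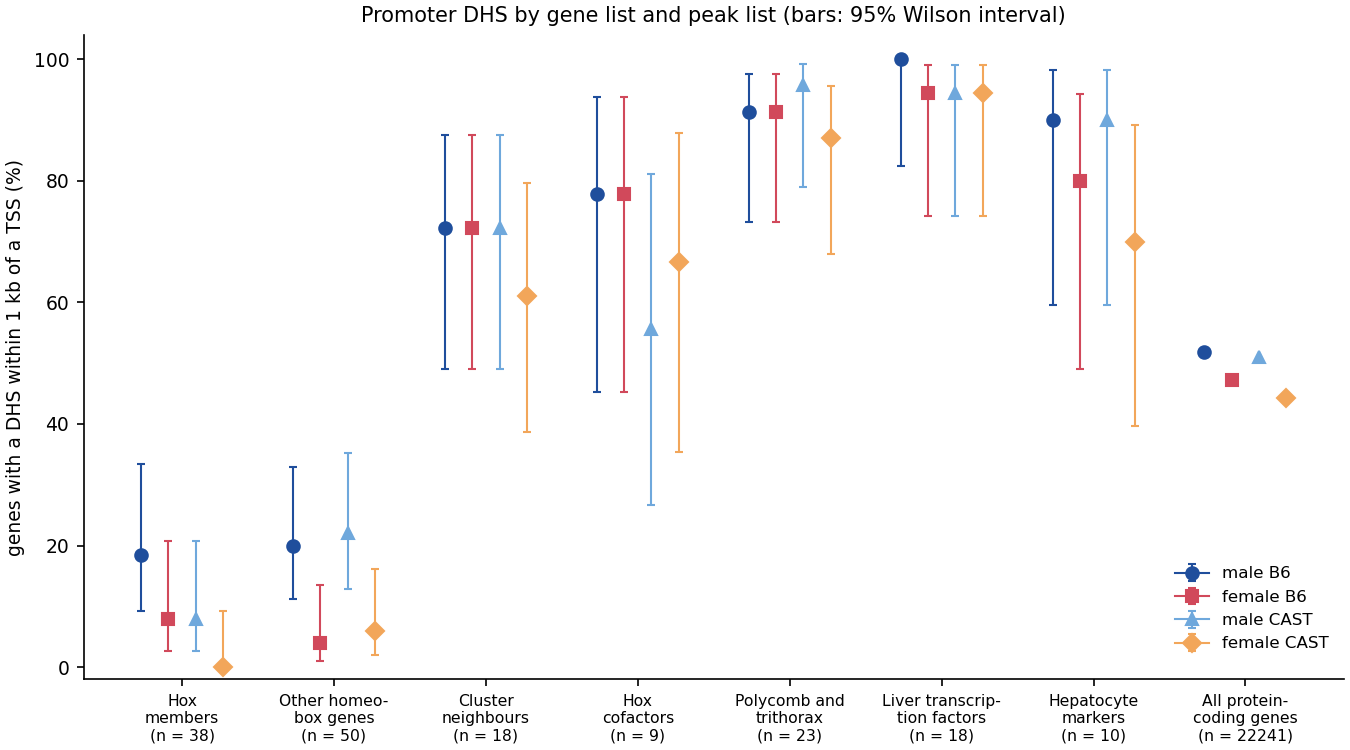
The share of genes with a DHS within 1 kb of a TSS (y axis, percent) is shown for 7 gene lists and all protein-coding genes (x axis), with 1 symbol per DHS list and bars giving the Wilson 95% interval. The Hox genes (0 to 18.4%) and the other homeobox genes (4 to 22%) lie below all protein-coding genes (44.3 to 51.8%). The shares of the other lists lie above all protein-coding genes in every DHS list, some with intervals that reach down to them.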

How the data were processed

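The authors mapped uniquely aligned reads to mm9 with Bowtie2 (2.2.9), CAST reads to mm9 carrying CAST variants with coordinates converted back, pooled the 4 libraries of each sex and strain, called peaks with MACS2 (2.1.1), and removed blacklisted and PCR-duplicate peaks. The deposited values are the fold enrichment (a ratio of summit pileup to background, each with 1 added), the −log10 p-value, the −log10 q-value (a score within each list) and the summit offset in bp. Library depth is not given in these lists. Pileup and background were recovered from the deposited fold and p, and lay within 0.02 of whole reads for at least 99.9% of peaks. Peaks overlapping by 1 bp were joined into regions, and genes and TSS came from GENCODE vM1 on mm9 (2 gene entries named Hoxa3 were joined). Recovery, joining and counting were tested on simulated data. Coordinates count from 1. All 38 genes are accounted for. Values per list were given for genes with a promoter DHS and for the strongest regions, and other gene lists as counts with up to 4 examples of highest fold, plus members named for their role. Pbx2, Pbx4, Meis2, Pcgf2, Ring1, Irx3, Snx10, Calcoco1, Lnp, Foxa1, Rxra and Prox1 were named after their values were seen. Members and lists were chosen with earlier results of these data known. Symbols absent from the annotation were left out of a list. The promoter values of 1 cofactor gene are not reported here. Alternatives were stricter or equal-size lists, depth scaling, other overlaps, windows and promoter limits. Wilson and Poisson 95% intervals cover counting error only. PCR reads are not independent molecules, so the Poisson intervals may be too narrow, and they describe only DHS that were called. Python 3.11.15, numpy 2.4.6, pandas 2.3.3, scipy 1.17.1 and matplotlib 3.10.9 were used.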

Additional observations from a re-analysis of the deposited data

Results flagged for a closer look

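The strain difference in the number of HoxB regions went opposite ways in the sexes. Male CAST had 1 more region than male B6 (3 and 2), and the count of female CAST minus that of female B6 was -1 (0 and 1). The whole lists moved the same way, since male CAST held 39562 DHS against 38751 for male B6, while female CAST held 24888 against 26271 for female B6. Each count is a single pooled list, and the difference was not tested.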

How the results depend on the processing

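Of 118 values recomputed under 12 settings, 76 stayed within 1.5 times the reported value or, for fold ratios, within 1 SD. No Hox region was common to the 4 lists under any setting. With the stricter threshold every count of regions and promoter genes was 0. Equal lists by −log10 q gave 2 regions in male B6 and 0 in male CAST, promoter genes of 0 (male B6), 1 (female B6) and 0 (male CAST), and 7 regions in 1 list, 0 in 2 or 3 lists, 2 in male lists only and 0 in both sexes. Equal lists by fold gave 2 (male B6), 3 (female B6) and 0 (male CAST) regions, promoter genes of 0, 1 and 0 in the same lists, and 6 regions in 1 list, 0 in 2 or 3 lists, 2 in male lists only and 0 in both sexes. The stricter and equal-size lists hold fewer peaks by construction. Depth scaling gave 3 regions and 1 promoter gene (Hoxa3) in female B6, 3 regions in 2 or 3 lists and 0 in both sexes. Within gene bodies alone (0 kb window) male CAST had 5 regions, 3 regions were in 2 or 3 lists and 10 in male lists only. Within 2.5 kb of a TSS, 11 genes had a DHS in male B6, 5 in male CAST and 1 (Hoxc8) in female CAST. With the TSS of protein-coding transcripts alone, 6 genes were called in male B6, without Hoxa6. The median fold ratio of male B6 to female B6 at the 3 shared Hox regions was 0.987 as deposited and 0.715 after each list was divided by its median fold at regions of all 4 lists. The cause of these changes was not tested. No paired analysis was possible because each list was called on pooled libraries and carries no replicate number, and leaving out single replicates was not possible either. Folds under 2.24 at the genome-wide background of female CAST were not called. Of the 30 Hox DHS of the other lists, 19 had a fold above 2.24 and 2 had their whole interval above it. Fold is not on a common scale between lists, and the part of depth in the female CAST count was not tested.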
